A study of Homo sapiens with 6 samples.

Results

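The genes described here are 9 LIM-domain genes whose proteins bind actin filaments or sit on them: CSRP1, CSRP2, ABLIM1, ABLIM3, LIMA1, PDLIM1, PDLIM5, PDLIM7 and ZYX. They are 9 of the 20461 entries with an Ensembl gene identifier in the tables, found there by symbol. They had been selected on the family name with the difference in read counts between the groups already known, so that difference is given below as a description, with the 95% interval of each fold change and no call of significance. RNA sequencing measured them in ARPE-19, a human cell line derived from the retinal pigment epithelium (RPE), in 2 groups of 3 libraries. The control group carried a control lentivirus, and the PDZK1 group carried a lentivirus that overexpressed PDZK1, a scaffold protein with PDZ domains that gathers membrane transporters. Both groups were transduced at a multiplicity of infection of 10, selected with 4 μg/ml puromycin, and held in 37.5 mM glucose for 48 h before RNA was extracted. No library of untransduced cells or of normal glucose was analysed here, so every value below belongs to cells in high glucose. Nothing in the labels says that replicates were separate cultures, and p-values therefore measure only the spread between these libraries, which may be technical.

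A LIM domain is a pair of zinc fingers that binds other proteins, and many LIM proteins sit where actin filaments are bundled, anchored or pulled on. Zyxin and its relatives move to filaments under strain at focal adhesions, the CSRP proteins bind alpha-actinin and bundle filaments, the PDLIM proteins tie alpha-actinin to signalling proteins through an added PDZ domain, and LIMA1 (EPLIN) slows the turnover of filaments. Many genes of the actin cytoskeleton are transcribed by serum response factor (SRF) with its actin-sensing coactivators MRTFA and MRTFB. In the RPE, the actin belt at the cell junctions holds the epithelial shape of the monolayer.

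Control replicate 3 had the lowest total count (27970618) and PDZK1 replicate 2 the highest (32804567), and a count of 0 in a library allowed up to 0.0915 to 0.109 CPM (counts scaled to library size), for counting error only. PDZK1 was at 0.588, 0.583 and 0.834 CPM in control replicates 1 to 3 and at 94.3, 77.5 and 89.2 CPM in PDZK1 replicates 1 to 3, as the labels state. Of 15 RPE markers, 11 passed the filter on low counts and none was past an adjusted p of 0.05 in edgeR's quasi-likelihood test, DESeq2 or limma-voom (1 at an unadjusted p under 0.05 in edgeR). Among all genes tested 3.83% were past it in edgeR, a share at which a list this short can hold 0. The keratin genes KRT8 and KRT18 averaged 577 and 506 FPKM (fragments scaled to transcript length and library size) in control, and the RPE transcription factors OTX2 and MITF 23.5 and 8.30 FPKM. RPE65 and TTR were at 0 in every library and TYR at no more than 2 counts, so defining genes of the mature RPE were absent. BEST1 stood at 11459 counts in PDZK1 replicate 1 against 124 to 181 in the other 5 libraries. The 10 smooth muscle markers summed to 77.2 to 92.1 FPKM in control and 85.1 to 92.0 in PDZK1. Most of it was MCAM, ACTA2 and SMTN, which averaged 34.2, 27.6 and 21.2 FPKM in control, while CNN1 was at 0 throughout. The 10 fibroblast markers summed to 39.2 to 44.7 FPKM in control and 47.0 to 52.1 in PDZK1, nearly all of it FAP and PDGFRB, with COL1A2, THY1, DCN and LUM at 0. Of these markers 5 were tested in edgeR, 0 were past an adjusted p of 0.05 and 4 were at an unadjusted p under 0.05. Their log2 fold changes were above 0 in 4 and below 0 in 1, POSTN (-2.81, edgeR adjusted p = 0.0704), which held at most 53 reads per library. The 6 endothelial markers summed to less than 1 FPKM in every library, with CDH5 and EMCN at 0. The 6 immune markers summed to 66.6 to 85.8 FPKM, nearly all of it CD68, and PTPRC, CD3E and AIF1 were at 0. The part of these markers in the results below was not tested.

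The promoters of CSRP1, ABLIM3 and PDLIM7 are shown first, because in these members the difference between the groups was largest relative to its standard error. The sequences are the RefSeq promoter windows on GRCh38.p14, read 5′ to 3′ on the strand of the gene and cut where an annotated exon of the gene begins. The window of CSRP1 belongs to an alternative start at chr1:201496574-201496823 on the minus strand, and its capitals mark a match to the TEAD motif GGAATG on the opposite strand. CSRP1 had 3 windows, and this one is shown as the only one with that motif. Which start these cells used was not tested. The window of ABLIM3 lies at chr5:149141243-149141482 on the plus strand, and its capitals mark a GC box, GGGCGG. The window of PDLIM7 lies at chr5:177497607-177497854 on the minus strand, and its capitals mark 2 GC boxes on the opposite strand.
CSRP1: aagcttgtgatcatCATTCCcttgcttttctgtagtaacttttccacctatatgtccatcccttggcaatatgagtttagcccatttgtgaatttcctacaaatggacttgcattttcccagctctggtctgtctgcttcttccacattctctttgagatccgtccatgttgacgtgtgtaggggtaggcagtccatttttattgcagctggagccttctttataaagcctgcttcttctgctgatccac
ABLIM3: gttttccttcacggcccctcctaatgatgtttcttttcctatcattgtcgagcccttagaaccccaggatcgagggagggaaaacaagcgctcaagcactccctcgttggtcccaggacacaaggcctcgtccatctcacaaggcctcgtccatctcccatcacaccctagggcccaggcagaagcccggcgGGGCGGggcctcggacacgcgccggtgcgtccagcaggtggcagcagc
PDLIM7: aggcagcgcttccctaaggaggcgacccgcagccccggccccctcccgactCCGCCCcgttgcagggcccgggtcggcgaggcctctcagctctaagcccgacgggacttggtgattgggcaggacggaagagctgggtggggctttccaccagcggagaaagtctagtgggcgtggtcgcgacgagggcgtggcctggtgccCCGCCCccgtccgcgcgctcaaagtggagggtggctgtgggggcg

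All 9 members matched the RefSeq table, with 19 windows of 300 bases among them. None of the 19 windows held the CArG box bound by SRF, which was found in 1.29% of all 35116 windows, counting both strands. In the same windows 7 of 23 other SRF target genes with a window, among them CNN2, FLNA and SRF itself, and 8 of 41 other LIM genes, among them LPP, TES and FHL2, held one. The TEAD motif was found in 2 of the 19 windows, of CSRP1 and LIMA1, and in 14.0% of all windows. The GC box, a motif added after the data had been seen, was found in 10 of the 19 windows, against 45.0% of all windows. By gene, it was in at least 1 window of all 9 members, of 22 of the 23 SRF target genes and of 32 of the 41 other LIM genes. A match says only that these letters are present, and no match says nothing about binding outside the window.

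All 9 members passed the filter on low counts, among 13645 genes tested. CSRP1 was the member with the largest difference, several fold lower in the PDZK1 group, while ABLIM3 was higher and PDLIM7 and PDLIM1 by less. CSRP2 was slightly lower, and ABLIM1, LIMA1, PDLIM5 and ZYX had the log2 fold changes closest to 0 among the members (-0.05 to 0.06). The CPM ranges of both groups lay apart in 5 of the 9 members, against 23.9% of all genes tested, and since the members had been chosen on this contrast nothing is read from that share. The median log2 fold change over the members was 0.029, and over all genes tested it was -0.0003.

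**Figure D1:**
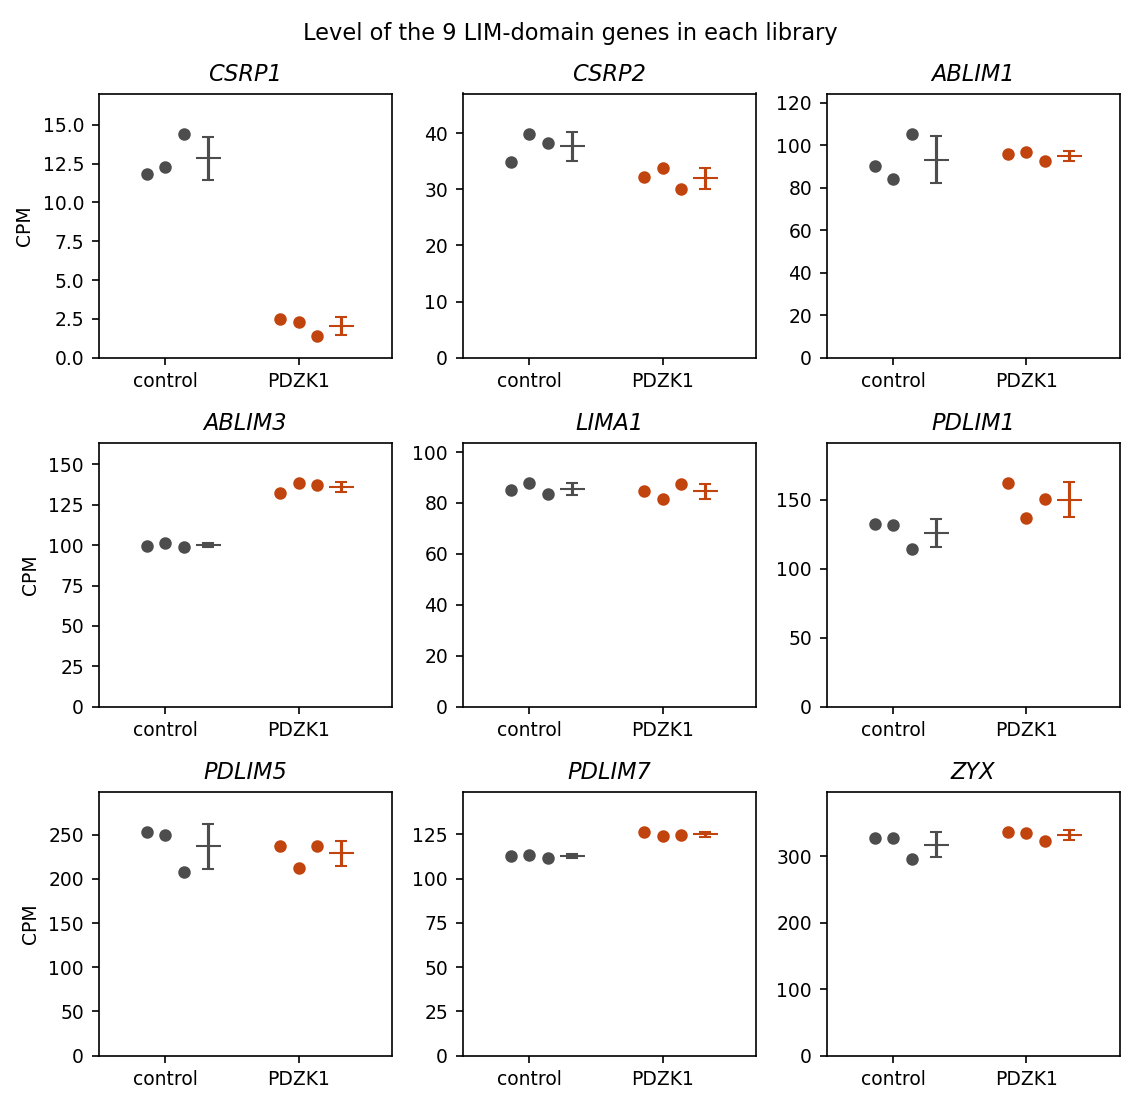
Level of each of the 9 genes in CPM (linear axes from 0, a scale for each gene) in the 3 control (grey) and 3 PDZK1 (orange) libraries, replicates 1 to 3 from left to right, with the mean and standard deviation beside the points. CSRP1 lies at 11.8 to 14.4 CPM in control and 1.39 to 2.47 CPM in PDZK1, and ABLIM3 lies higher in every PDZK1 library.

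The cysteine- and glycine-rich proteins CSRP1 and CSRP2 consist mainly of LIM domains and bundle actin through alpha-actinin. CSRP1 (ENSG00000159176, chr1:201483530-201509456, minus strand) stood at 11.8, 12.3 and 14.4 CPM in control replicates 1 to 3 and at 2.47, 2.29 and 1.39 CPM in PDZK1 replicates 1 to 3. These were 382, 380 and 398 reads against 79, 75 and 44 reads. Every PDZK1 library was far below every control library, the lowest being PDZK1 replicate 3 and the highest control replicate 3. The log2 fold change was -2.65 (95% interval -3.09 to -2.20), a level 6.26-fold lower (4.59 to 8.54). A fold change at or below this value was measured for 38 of the 13645 genes tested, CSRP1 included. CSRP2 (ENSG00000175183, chr12:76858715-76879060, minus strand) stood at 34.8, 39.9 and 38.3 CPM in control and at 32.1, 33.8 and 30.1 CPM in PDZK1. Its groups did not overlap, but the gap between control replicate 1 and PDZK1 replicate 2 was small, and the log2 fold change was -0.24 (-0.39 to -0.08).

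CSRP2 was thus the more abundant of the pair in both groups, and CSRP1 became a minor part of it. Of the summed FPKM of CSRP1 and CSRP2, CSRP1 made up 14.3%, 13.1% and 15.6% in control and 3.6%, 3.19% and 2.12% in PDZK1. The sum itself was 45.1 ± 3.00 FPKM in control and 34.3 ± 2.01 FPKM in PDZK1 (SD, n = 3). The muscle paralog CSRP3 held only 3 to 28 reads per library.

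ABLIM1 and ABLIM3 couple several LIM domains to a villin headpiece that binds actin filaments. ABLIM3 (ENSG00000173210, chr5:149141483-149260542, plus strand) stood at 99.5, 101 and 98.8 CPM in control and at 132, 139 and 137 CPM in PDZK1. The libraries lay close together within each group and far apart between them, with a log2 fold change of 0.45 (0.37 to 0.52), or 1.36-fold higher (1.29 to 1.44). ABLIM1 (ENSG00000099204, chr10:114431113-114685003, minus strand) stood at 89.99, 84.1 and 105 CPM in control and at 95.9, 96.7 and 92.3 CPM in PDZK1. The PDZK1 libraries fell inside the range of the control libraries, with a log2 fold change of 0.03 (-0.15 to 0.21). Reads of ABLIM3 over reads of ABLIM1 came to 1.11, 1.20 and 0.938 in control and to 1.38, 1.43 and 1.49 in PDZK1, without overlap.

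The PDLIM proteins carry a PDZ domain at one end and LIM domains at the other and bind alpha-actinin on stress fibres. PDLIM1 (CLP36, ENSG00000107438, chr10:95237572-95291024, minus strand) stood at 132, 132 and 114 CPM in control and at 162, 137 and 151 CPM in PDZK1. All PDZK1 libraries were above all control libraries, with control replicate 3 the lowest, and the log2 fold change was 0.25 (0.07 to 0.43). PDLIM7 (Enigma, ENSG00000196923, chr5:177483394-177497606, minus strand) stood at 113, 114 and 112 CPM in control and at 127, 124 and 125 CPM in PDZK1. Its groups did not overlap and each spanned only a few CPM, with a log2 fold change of 0.15 (0.08 to 0.22), or 1.11-fold higher. PDLIM5 (ENH, ENSG00000163110, chr4:94451857-94668227, plus strand) stood at 253, 250 and 208 CPM in control and at 238, 213 and 237 CPM in PDZK1. The groups overlapped, control replicate 3 being the lowest library, and the log2 fold change was -0.05 (-0.25 to 0.15).

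Of the PDLIM paralogs outside the 9, PDLIM2 had a log2 fold change of -0.22 (-0.44 to -0.002; edgeR adjusted p = 0.281), PDLIM3 of -0.17 (-0.52 to 0.19; adjusted p = 0.655) and PDLIM4 of -0.31 (-0.53 to -0.09; adjusted p = 0.130). None of these was past the threshold, although PDLIM4 stood at 15.8 to 19.4 CPM in control and 13.3 to 14.9 CPM in PDZK1 without overlap. Without control replicate 3 PDLIM4 was past it (log2 fold change -0.38, edgeR adjusted p = 0.0327). LDB3, a striated muscle gene of the family, held 2 to 11 reads and was not tested.

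LIMA1 has a LIM domain between actin-binding stretches and cross-links filaments, and zyxin recruits VASP to actin. LIMA1 (ENSG00000050405, chr12:50175788-50283546, minus strand) stood at 85.0, 87.9 and 83.6 CPM in control and at 84.5, 81.7 and 87.3 CPM in PDZK1. The groups overlapped almost wholly, and the log2 fold change was -0.02 (-0.11 to 0.08). ZYX (ENSG00000159840, chr7:143381080-143391111, plus strand), which encodes zyxin, stood at 328, 328 and 295 CPM in control and at 337, 335 and 323 CPM in PDZK1. Control replicate 3 was below the other 5 libraries, control replicates 1 and 2 lay within the PDZK1 range, and the log2 fold change was 0.06 (-0.04 to 0.17). The zyxin relatives TRIP6 and LPP had log2 fold changes of 0.01 (-0.06 to 0.09) and 0.02 (-0.09 to 0.12), with overlapping groups.

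**Figure D2:**
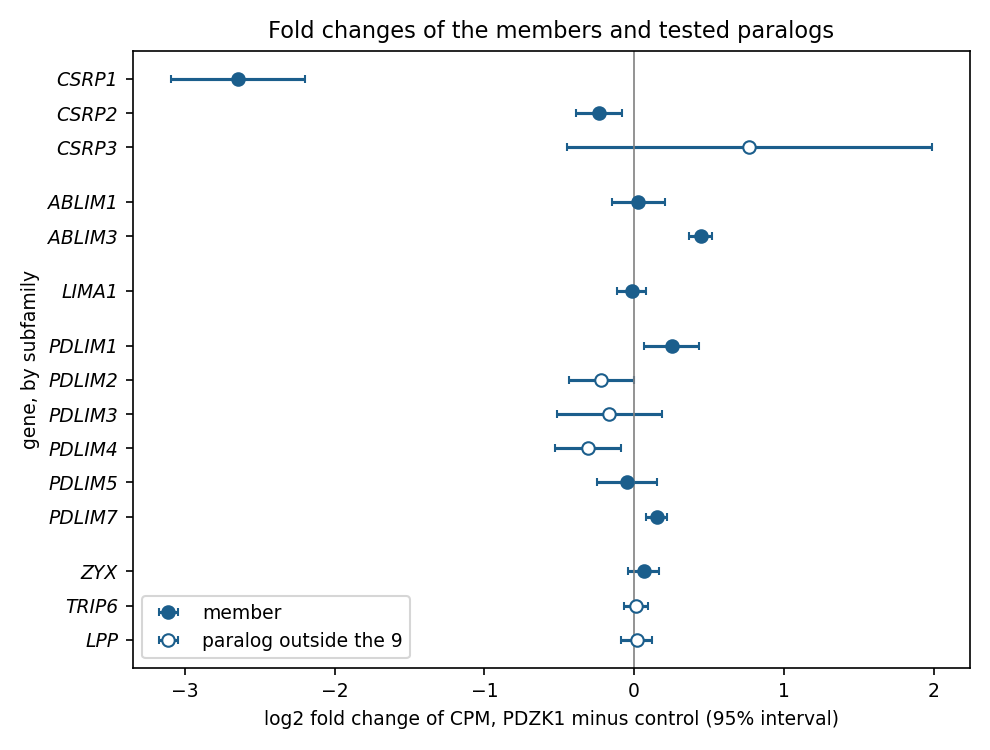
Log2 fold change of CPM, PDZK1 minus control, with its 95% interval from edgeR, for the 9 members (filled) and tested paralogs outside them (open), ordered by subfamily. CSRP1 stands apart at -2.65 from its relative CSRP2 at -0.24, and the wide interval of CSRP3 belongs to a gene of at most 28 reads per library. Among the members ABLIM3, PDLIM1 and PDLIM7 are highest, at 0.45, 0.25 and 0.15. The intervals take no account of the selection of the members on this contrast.

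Control replicate 3 was below the other 5 libraries in 5 members (ABLIM3, PDLIM1, PDLIM5, PDLIM7 and ZYX). It was above them in CSRP1 and ABLIM1, and within their range in CSRP2 and LIMA1. The margin was small in ABLIM3 (98.8 against 99.5 CPM in the next library) and PDLIM7 (112 against 113 CPM), where the whole control group was lower. How often this library was the lowest or highest over all genes was not counted. Control replicate 3 was also the library of lowest depth. Without it the log2 fold change was 0.18 for PDLIM1, -0.14 for PDLIM5, 0.13 for ABLIM1 and 0.02 for ZYX, while CSRP1 stood at -2.56, ABLIM3 at 0.44 and PDLIM7 at 0.14.

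On the scale of FPKM, which allows levels of different genes to be compared, the members in control ran over a range from zyxin to CSRP1. ZYX was highest at 136 ± 8.95 FPKM (SD, n = 3), followed by PDLIM1 at 80.9 ± 6.67, PDLIM7 at 65.2 ± 0.423, CSRP2 at 38.6 ± 2.69 and PDLIM5 at 38.0 ± 4.48 FPKM. Below these came ABLIM3 at 22.7 ± 0.531, LIMA1 at 21.9 ± 0.404, ABLIM1 at 16.1 ± 1.84 and CSRP1 at 6.45 ± 0.696 FPKM. Neighbours in this order did not overlap over the 3 libraries except CSRP2 and PDLIM5, whose order is therefore not resolved. In PDZK1 the order was the same apart from these 2 genes, with ZYX at 143 ± 2.63 FPKM at the top and CSRP1 at 1.02 ± 0.301 FPKM at the bottom. ABLIM3 rose to 31.4 ± 1.38 FPKM there, so that its libraries (29.8 to 32.2) overlapped those of CSRP2 (31.5 to 35.0). The 9 members together summed to 436, 436 and 406 FPKM in control and to 462, 442 and 448 FPKM in PDZK1, of which ZYX made up 31.0% to 32.6% in every library. CSRP1, with the largest fold change, was thus the member at the lowest level.

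**Figure D3:**
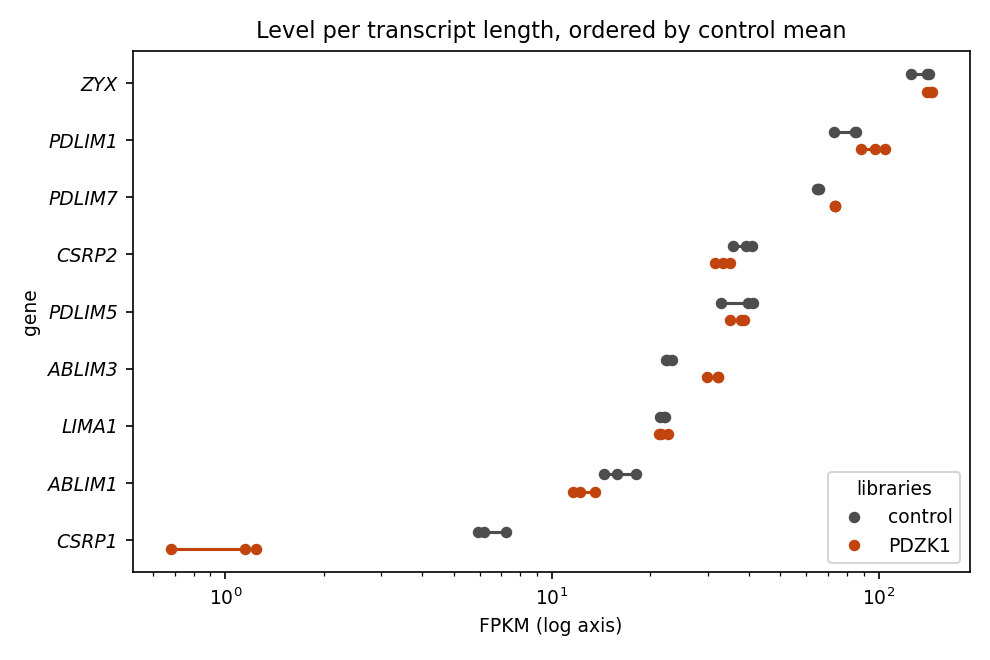
FPKM of each gene in the 3 control (grey) and 3 PDZK1 (orange) libraries on a log axis, ordered by the control mean, with lines spanning the lowest to the highest library. ZYX lies at 126 to 145 FPKM over all libraries, and CSRP1 at 5.94 to 7.25 FPKM in control and 0.680 to 1.24 FPKM in PDZK1.

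The count and the FPKM of a gene differ by its length, and their ratio, scaled by the library total, gives the mean length of the transcripts that the deposited values assume. This implied length is built from the counts and FPKM of the same libraries in which the members were selected. It is therefore not independent of that selection, and is given for the members as a description. Over 666 genes with a single annotated transcript it was 1.08 times the annotated length at the median (interquartile range 1.07 to 1.09). It was tested with limma over 12169 genes, of which 0, or 0%, had an adjusted p under 0.05, the smallest being 0.0923, while 520 had an unadjusted p under 0.05. The groups did not overlap in 8.96% of these genes.

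ABLIM1 was the member with the largest difference in implied length between the groups. It came to 5658, 5771 and 5759 bases in control replicates 1 to 3 and to 7095, 7948 and 8013 bases in PDZK1 replicates 1 to 3, or, divided by 1.08, to 5239 to 5344 and 6569 to 7419 bases. Every PDZK1 library was longer than every control library, PDZK1 replicate 1 being the least so. The log2 difference was 0.41 (95% interval 0.27 to 0.55, SE 0.05, limma unadjusted p = 0.000706), which was not past the threshold over all genes (adjusted p = 0.537). A difference at least as large without overlap of the groups was measured in 22 of the 12169 genes (0.181%). Without PDZK1 replicate 1 the difference was 0.47 with an adjusted p of 0.0184, and without any other single library it was 0.38 to 0.42 and not past the threshold.

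ABLIM1 was lower in PDZK1 by FPKM, while by counts no direction was resolved. Its FPKM was 15.8, 14.4 and 18.0 in control and 13.5, 12.2 and 11.6 in PDZK1, with no overlap, whereas its CPM overlapped. The log2 difference of FPKM (pseudocount 1) was -0.35, against a log2 fold change of 0.03 by counts (95% interval -0.15 to 0.21). GENCODE release 29 lists 11 coding transcripts of ABLIM1, of which 4, of 6841 to 7690 bases, end at the same last base of the gene (position 114431113 of chromosome 10, minus strand). The other 7, of 541 to 3203 bases, end at least 4328 bases before it. How the authors' counting assigned reads to these transcripts is not given in the sources used here. Implied lengths of the other 8 members differed by -0.01 to 0.02 on the log2 scale, and of these CSRP1 alone had no overlap between groups.

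**Figure D4:**
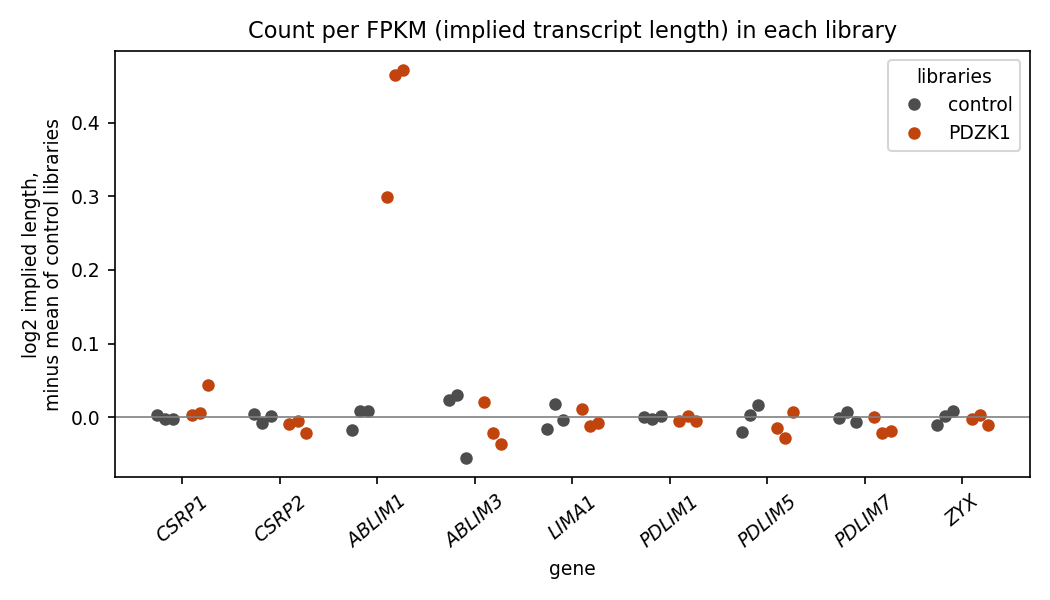
Implied transcript length (count over FPKM, centred on the median gene of each library) of the 9 genes in each control (grey) and PDZK1 (orange) library, as the log2 difference from the mean of the 3 control libraries. ABLIM1 has 3 PDZK1 libraries at 0.30 to 0.47, and the points of the other 8 genes lie within 0.06 of 0.

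The other LIM genes, the family completed by name, were compared as the nearest relatives. This list and those below were chosen with earlier results of these data known, so their counts are a description. Of 45 such genes 39 were tested, and 5 (12.8%) were past an adjusted p of 0.05 in edgeR's test, 2 higher and 3 lower. Among all genes tested 3.83% were past it, 1.41% higher and 2.41% lower. LPXN (leupaxin, a paxillin relative) was at 15.7 ± 1.39 CPM in control and 26.5 ± 1.06 CPM in PDZK1 (SD, n = 3), a log2 fold change of 0.75 (adjusted p = 0.001). LIMK1, the kinase that phosphorylates cofilin, was at 151 ± 3.27 and 174 ± 3.84 CPM, a log2 fold change of 0.21 (adjusted p = 0.011). NEBL, a nebulin-related protein of actin filaments, was at 64.9 ± 5.05 and 45.7 ± 4.26 CPM, a log2 fold change of -0.51 (adjusted p = 0.00981). MICALL1, a protein of recycling endosomes, was at 164 ± 2.67 and 130 ± 5.55 CPM, a log2 fold change of -0.34 (adjusted p = 0.00156). LIMCH1, an activator of non-muscle myosin II, was at 377 ± 7.63 and 317 ± 10.7 CPM, a log2 fold change of -0.25 (adjusted p = 0.00693). In each of these 5 the groups lay apart. The median log2 fold change of the 39 was 0.05. LPXN and MICALL1 passed the threshold whichever library was left out, whereas 2 of the 39 passed without control replicate 2 (adjusted p of 0.0656 for NEBL, 0.0506 for LIMCH1 and 0.0561 for LIMK1). NEBL was not past it without PDZK1 replicate 1 (0.0685), nor LIMK1 without control replicate 1 (0.0543) or PDZK1 replicate 3 (0.069).

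Of 27 SRF target genes 25 were tested and 4 (16.0%) were past the threshold, 2 in each direction, against 3.83% of all genes tested. The median log2 fold change of the 25 was 0.03. THBS1, the matrix protein thrombospondin-1, was higher (289 ± 16.0 against 391 ± 17.1 CPM, log2 fold change 0.44, adjusted p = 0.00138), and so was calponin-2, CNN2 (log2 fold change 0.17, adjusted p = 0.0375). MYH10, the heavy chain of non-muscle myosin IIB, was lower (log2 fold change -0.14, adjusted p = 0.0345). TNC, the matrix protein tenascin-C, was also lower (log2 fold change -1.06, adjusted p = 0.01) but at a mean under 5 CPM in both groups, and is named here after its values were seen. THBS1 passed the threshold in every alternative run. TNC did not pass without control replicate 1, without PDZK1 replicate 3 or with the replicate number as a block. It was also not among the genes past the threshold in the filtered FPKM fits. Without any single library other than control replicate 3, CNN2 was at an adjusted p of 0.0582 to 0.166 and MYH10 at 0.0945 to 0.169. The count was 1 or 2 without any single library other than control replicate 3, without which it was 6.

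None of the 19 listed regulators of this transcription and of actin turnover passed the threshold. LIMK1, which also acts on actin turnover, was counted with the other LIM genes above and was past it (edgeR adjusted p = 0.011). SRF was at 56.0 ± 4.36 CPM in control and 58.2 ± 2.44 CPM in PDZK1, with a log2 fold change of 0.06 (-0.09 to 0.20). The log2 fold changes of MRTFA and MRTFB were 0.02 (-0.10 to 0.14) and 0.02 (-0.11 to 0.15), with overlapping groups. Of the 19 regulators 0 were past edgeR's threshold, DESeq2 and limma-voom called 0 as well, and 2 had an unadjusted p under 0.05 (DIAPH3 and SSH1). Of the 25 binding partners of the members, such as the alpha-actinins, VASP proteins and tropomyosins, 23 were tested and 0 were past the threshold by edgeR, DESeq2 or limma-voom, with 2 at an unadjusted p under 0.05 (EVL and TPM2). Without control replicate 3, 1 gene of each list was past it, DIAPH3 and SYNPO. With all libraries 3.83% of all genes tested were past it, a share at which lists as short as these can hold 0. The list called YAP targets here, YAP being the other tension-sensing coactivator, held 13 genes. Among them were YAP1, WWTR1 and TEAD1, which are not themselves targets and none of which was past the threshold. Of the 13 genes 2 (15.4%) were past the threshold and 11 did not pass, with a median over the whole list of -0.11. These were NUAK2 (log2 fold change -0.62, edgeR adjusted p = 0.0331) and F3 (-0.26, edgeR adjusted p = 0.0251), both lower. NUAK2 was at an adjusted p of 0.0848 to 0.136 without any single library other than control replicate 3, and F3 at 0.110 to 0.111 without control replicate 2, PDZK1 replicate 1 or PDZK1 replicate 3. The count of YAP targets was 6 without control replicate 3 and 0 or 1 without any other library.

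**Figure D5:**
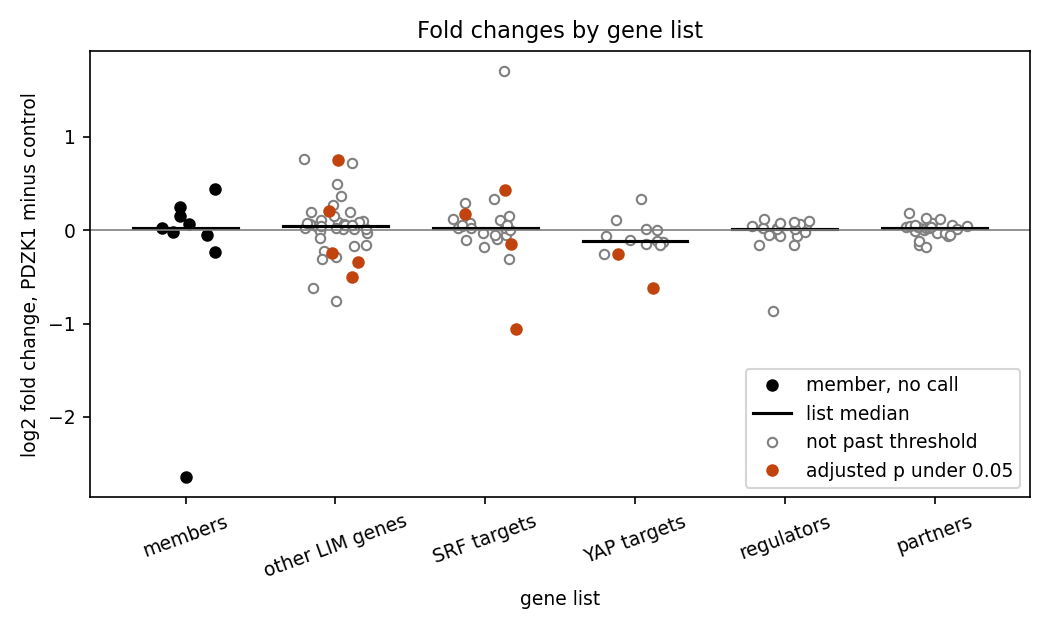
Log2 fold change, PDZK1 minus control, of every tested gene of the members and of 5 lists, with a bar at each median. The lists were named from family or textbook roles with earlier results of these data known. Members are black without a call, and in the lists filled points are past an adjusted p of 0.05 in edgeR. The list of YAP targets includes YAP1, WWTR1 and TEAD1. Medians lie between -0.11 (YAP targets) and 0.05 (other LIM genes), and CSRP1 is the lowest point of all at -2.65.

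CSRP1 was also set beside the other genes by its profile over the libraries. The measure was the root mean square difference over the 6 libraries between profiles of log2 CPM, each centred on its control mean. The closest were ITIH5 (0.309), a gene of the inter-alpha-trypsin inhibitor family, KLK11 (0.352), a secreted serine protease of the kallikrein family, and QPRT (0.574), an enzyme of NAD synthesis. ITIH5 was at 15.5, 14.7 and 9.93 CPM in control and at 2.53, 2.38 and 1.73 CPM in PDZK1. The other 8 members lay at 1.72 to 2.21 on this measure. Because each profile is centred on control, the measure mostly repeats the fold changes given above. Nothing further is read from it, for the members or for the closest genes.

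The members were also set beside their chromosome segments. Over the 10 tested genes on each side of CSRP1 the median log2 fold change was -0.004, with 10 genes below 0 and 10 above, and 2 genes past the threshold, TMEM9 and IGFN1, both higher. Around ABLIM3 the median was -0.12, with LARS past the threshold and lower. For the other 7 members the medians ran from -0.05 around PDLIM7 to 0.12 around ZYX, and no neighbour was past the threshold.

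In GENCODE release 29 a gene on the opposite strand overlaps CSRP1, CSRP2, ABLIM3, LIMA1, PDLIM7 and ZYX, which for ZYX is EPHA1. Whether the counting used strand is not given in the sources used here, so reads of such pairs cannot be told apart. PDLIM1 has 4 numbered pseudogenes and ZYX 1, with which reads could be shared. Bulk RNA does not tell fewer cells expressing a gene from less RNA per cell, which holds for every difference given above.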

How the data were processed

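RNA was sequenced from 3 control and 3 PDZK1 libraries. Per the submitters' processing notes, fastp 0.20.1, HISAT2 2.2.1 and build GRCh38 were used. The counting program, its annotation and strandedness are not given in the sources used here. The authors deposited estimated counts as whole numbers per gene and library, unscaled. The FPKM deposited by the authors scale fragments by transcript length and library. Of 21314 entries, 853 carry names that StringTie gives to assembled loci by default (0.519% to 0.536% of counts) and were left out, and 20229 of 20461 Ensembl identifiers matched GENCODE release 29. Of the columns of per-sample values, 3 in either table matched no sample and were not used.

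Counts were tested with edgeR 4.0.16 in R 4.3.3 (filterByExpr, TMM, robust quasi-likelihood test, no covariate, Benjamini-Hochberg over 13645 genes, threshold 0.05), with a common biological coefficient of variation of 0.0995. CPM use TMM-scaled library sizes, and errors are standard deviations. Implied length was tested with limma 3.58.1 on log2 (count over FPKM), centred on the library median, for genes with a mean FPKM of at least 0.5 and at least 10 counts in every library. Both procedures were tested on simulated data. The members and lists were chosen with earlier results of these data known. Genes outside the members were named by rule: PDZK1, SRF, MRTFA, MRTFB, paralogs of the members, the up to 5 largest changes in each direction of each list past the threshold (mean of 5 CPM or more in the higher group), and the 3 profiles closest to CSRP1 (prior count 2). Others were named after their values were seen, and a gene that the rule names is not reported here. Replicate numbers did not pair the libraries, with correlations of same-numbered deviations of -0.046, -0.056 and -0.143. Alternatives were DESeq2 1.42.0, limma-voom, other scalings and count filters, limma on log2 FPKM with pseudocounts of 1 and 0.1, a replicate block, and each library left out in turn. Promoter windows came from RefSeq (GRCh38.p14). LIM repeats in protein sequences were not analysed here.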

Additional observations from a re-analysis of the deposited data

How the results depend on the processing

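Calls of the members are not given, since they were chosen on this contrast. The log2 fold change of CSRP1 ran from -2.80 to -2.43 and that of ABLIM3 from 0.43 to 0.47 when a library was left out. Over all genes 522 were past the threshold, against 814 with DESeq2, 191, 187 and 184 with limma on log2 FPKM (pseudocount 1, pseudocount 0.1, no filter), and 181 to 875 with a library left out, the highest being without control replicate 3. For the other LIM genes the count of 5 became 2 in each of the 3 FPKM fits and 2 to 7 with a library left out. For SRF targets the count of 4 became 7 with DESeq2, 1 in both filtered FPKM fits and 1 to 6 with a library left out. For YAP targets the count of 2 became 4 with DESeq2, 0 in the 3 FPKM fits and 0 to 6 with a library left out. For regulators and for partners it was 0 to 1, and for implied length 0 to 2, with a library left out. The cause was not tested.

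With the replicate number as a block, which the numbers do not support as a pairing, 163 genes were past the threshold in all, with 2 other LIM genes, 1 SRF target, 0 YAP targets and 0 genes by implied length. Same-numbered libraries did not correlate best with each other.

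The direction of the smallest differences was not stable. ABLIM1 turned to -0.35, -0.37 and -0.35 in the FPKM fits (pseudocount 1, pseudocount 0.1, no filter), and LIMA1 to 0.0012 with library totals. With a library left out, the log2 fold change ran from -0.040 to 0.13 for ABLIM1, from -0.040 to 0.0092 for LIMA1, from -0.14 to 0.0034 for PDLIM5, from -0.0033 to 0.11 for SRF, from -0.0038 to 0.043 for MRTFA, from -0.020 to 0.050 for MRTFB, from -0.0020 to 0.040 for TRIP6 and from -0.032 to 0.051 for LPP. The libraries that turned a member were control replicate 2 for ABLIM1 and LIMA1, PDZK1 replicate 2 for LIMA1 and PDLIM5, and control replicate 1 for PDLIM5.

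CSRP1 rested on 44 to 79 reads per PDZK1 library, which limits the precision of its fold change.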
